A study of Mus musculus with 49 samples.

Results

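The effects of both manipulations of amylin in this study were set against each other in mouse frontal cortex under high fat feeding, by asking of each gene whether the difference between libraries labelled AKO and wild-type (WT) libraries was larger or smaller than the difference between tamoxifen and vehicle in conditional human amylin transgenic mice. The quantity compared was (AKO minus WT) minus (tamoxifen minus vehicle). The 4 groups were chosen by their titles and hold 40 of the 49 libraries of the series, 10 in each group. All 4 groups had been on the diet for 4 months. WT mice carried neither change, AKO stands for amylin knockout in the labels, and the transgenic mice were injected with vehicle or with tamoxifen, their brains being taken 2 months after injection. Both transgenic groups carry the transgene, so tamoxifen against vehicle compares injected agents within 1 genotype. The titles of the transgenic groups hold the word Cre, but no label names the Cre driver, the promoter, the strain, the sex, a litter or a batch. Mice given tamoxifen but lacking the transgene were not analysed here, so tamoxifen itself and the transgene cannot be told apart, and expression of the human transgene was not measured. The labels do not say that the libraries are separate animals, so p-values here speak only to the spread among libraries.

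Amylin, the product of Iapp, is a hormone co-secreted with insulin by the beta cells of the pancreas. It acts on receptors made of the calcitonin receptor (Calcr) and a receptor activity modifying protein (Ramp1, Ramp2 or Ramp3), and in the brain it is known for lowering food intake through the hindbrain. Human amylin aggregates into amyloid, whereas mouse amylin does not.

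For each gene the AKO-label effect is the mean log2 level of the libraries labelled AKO minus that of WT, and the tamoxifen effect is the mean of the tamoxifen libraries minus that of the vehicle libraries. Levels are log2(normalised reads + 1), so effects of genes with few reads are understated. All p-values are two-sided and come from 1 limma model of the 40 libraries, adjusted by the Benjamini-Hochberg method over 15677 genes tested of 24488, and a gene is called where the adjusted p is under 0.05. The libraries held 29.2 to 75.6 M reads (M for 1e+06), with group medians of 39.8 M (AKO), 37.8 M (WT), 47.1 M (tamoxifen) and 39.8 M (vehicle). Slc17a7, the vesicular glutamate transporter of cortical excitatory neurons, lay between 15.23 and 16.58 log2 in all 40 libraries. Libraries also differed in markers of neighbouring tissue. The level of the olfactory mucosa markers, of which 6 of 13 were tested, ran from -1.26 to 5.69 in AKO (mean of centred log2 values) and from -1.96 to 2.11 over the other 3 groups, with AKO replicate 14 highest. Striatal markers ran from -2.13 to 1.32 and olfactory bulb markers from -2.42 to 2.85 over the 40 libraries. In bulk tissue, fewer cells of a type and less RNA per cell cannot be told apart.

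The AKO-label effect and the tamoxifen effect differed for 6 genes, which is 0.0383% of those tested. The AKO-label effect was the higher of the pair for Iapp, Hmga2-ps1, Gabra2 and Nnt, and the lower for Fmn1 and Cyr61. At an unadjusted p under 0.05, 886 genes differed, 462 (2.95%) with the higher AKO-label effect and 424 (2.7%) with the lower. For the median gene the 95% interval of the difference, which is not adjusted for the number of genes, reached 0.22 log2 to each side. Smaller differences were mostly not detectable with 10 libraries a group, and a call at the adjusted threshold takes a larger one still. Hes5 at 1.04 log2, for example, was not called (limma adjusted p 0.183).

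Iapp, the gene named by the knockout label, went against that label. It had 596 reads in 462.2 M over the AKO libraries, 36 to 116 in each of the 10, and 0 reads in 409.0 M over WT. Taking 3 reads over the WT group as the limit, the AKO level was at least 176-fold higher. Tamoxifen libraries had 0 reads in 474.7 M and vehicle libraries 1 read in 419.9 M. The difference of the effects was 5.87 log2 (SE 0.315, limma adjusted p 3.8e-17), a value that depends on the 1 added before the logarithm. Iapp passed the filter on reads only through the libraries labelled AKO, the group where it is high. Its SD was 0 in WT and after tamoxifen, so the SE and p do not measure a spread within those groups. Because Iapp went against the label, every direction given here for the libraries labelled AKO is a direction of that label. What these mice carry was not tested.

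No other member of the pathway was called. Iapp was 1 of 8 amylin and calcitonin peptides and receptors tested. The receptor gene Calcr had few reads, with an AKO-label effect of 1.503 and a tamoxifen effect of 1.25. Of the receptor activity modifying proteins, Ramp1 had effects of 0.06 and -0.03, Ramp2 of -0.08 and -0.05, and Ramp3 of 0.09 and 0.16. Adrenomedullin (Adm), a related peptide, was at -0.50 and -0.28. None of these 5 passed the adjusted threshold for either effect or for their difference.

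Gabra2 encodes the alpha 2 subunit of the GABA-A receptor, the chloride channel of fast inhibition, and lies at chr5:70957597-71095849 on the minus strand (GENCODE M21, GRCm38; the authors' own build is unknown). Its lowest, median and highest levels were 11.67, 11.86 and 12.12 log2 in AKO and 10.48, 10.63 and 10.99 in WT. They were 11.50, 11.95 and 12.10 after tamoxifen and 11.32, 11.91 and 12.07 after vehicle. WT was the group that stood apart. All 20 transgenic libraries lay above the highest WT library, and 9 of 10 in each transgenic group lay within the range of the libraries labelled AKO. The AKO-label effect was 1.21 (2.31-fold higher) and the tamoxifen effect 0.05 (95% interval -0.10 to 0.19), and they differed by 1.16 (SE 0.102, limma adjusted p 3.0e-10). It was the only one of 14 GABA-A subunits tested that was called. The other 13 had differences from -0.87 (Gabre, a subunit with few reads here) to 0.12 (Gabrd, the delta subunit of extrasynaptic receptors).

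Nnt encodes the mitochondrial transhydrogenase that makes NADPH from NADH and lies at chr13:119335448-119408997 on the minus strand, where the annotation holds overlapping gene models of that name. Its lowest, median and highest levels were 10.46, 10.51 and 10.59 log2 in AKO against 9.64, 9.70 and 9.92 in WT, with no overlap. Tamoxifen libraries spread over 9.55, 10.24 and 10.46 and vehicle libraries over 9.63, 10.08 and 10.61. The transgenic libraries thus lay between and across both other groups, 8 of 10 after tamoxifen and 7 of 10 after vehicle being above the highest WT library and 1 in each within the AKO range. The effects of 0.77 and 0.03 differed by 0.74 (SE 0.141, limma adjusted p 0.0131). None of the other 9 mitochondrial NADPH enzymes tested was called. Nnt lost its call with tissue marker levels as covariates (0.72, limma adjusted p 0.276), with the level of the immediate early genes as a covariate (0.43, limma adjusted p 0.285), and against either run of WT numbers alone (limma adjusted p 0.129 for 11 to 15 and 0.0827 for 21 to 25). The immediate early gene level did not overlap between AKO (highest -0.28) and WT (lowest 0.01). As a covariate it can therefore take up part of any AKO-label effect.

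Fmn1, formin 1, nucleates straight actin filaments and lies at chr2:113327736-113716767 on the plus strand. Its lowest, median and highest levels were 7.55, 8.13 and 8.41 log2 in AKO and 9.36, 9.64 and 9.73 in WT. They were 8.77, 9.69 and 10.09 after tamoxifen and 7.95, 9.62 and 9.92 after vehicle. Here the libraries labelled AKO stood apart from the other 3 groups, except that vehicle replicate 3 lay within their range. Fmn1 fell by 1.49 log2 (2.82-fold) in the libraries labelled AKO and had a tamoxifen effect of 0.19 (95% interval -0.12 to 0.51), a difference of -1.69 (SE 0.223, limma adjusted p 1.4e-05). None of the other 10 formins tested was called.

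Hmga2-ps1, a pseudogene of the chromatin protein gene Hmga2, had the largest difference of the 6 after Iapp. The lowest, median and highest levels were 6.12, 7.90 and 8.90 log2 in AKO and 3.82, 4.9995 and 5.68 in WT. They were 4.51, 5.19 and 5.88 after tamoxifen and 4.51, 5.21 and 6.04 after vehicle. No library of another group reached the AKO range. The AKO-label effect of 2.996 (7.98-fold higher) and the tamoxifen effect of 0.02 differed by 2.97 (SE 0.372, limma adjusted p 4.4e-06). Reads may be shared between this pseudogene and its parent, in a way the labels do not describe, so its level is uncertain.

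Cyr61, also named Ccn1, encodes a secreted matricellular protein that is induced early by growth factors, and lies at chr3:145646976-145649981 on the minus strand. It was the one gene of the 6 whose effects had opposite signs with an unadjusted p under 0.05 on each side. Libraries had lowest, median and highest levels of 7.04, 7.48 and 7.91 log2 in AKO and 7.74, 9.26 and 10.67 in WT, with 8 of 10 AKO libraries below the lowest WT library. They were 7.12, 8.61 and 10.27 after tamoxifen and 7.30, 7.81 and 8.43 after vehicle, with 6 of 10 tamoxifen libraries above the highest vehicle library. Cyr61 fell by 1.72 log2 (3.30-fold) with the AKO label, while the tamoxifen effect of 0.73 (SE 0.327, unadjusted p 0.0314) was not called. The difference was -2.45 (SE 0.463, limma adjusted p 0.0131), or -3.43 against WT numbers 11 to 15 alone and -1.48 (limma adjusted p 0.436) against 21 to 25 alone. The call was also lost with limma-voom (-2.29, limma adjusted p 0.368), with tissue marker covariates (-2.15, limma adjusted p 0.545) and with the level of the immediate early genes as a covariate (-1.33, limma adjusted p 0.294). Among 13 YAP-responsive and matricellular genes tested it was the only one called, and Amotl2, which restrains YAP, was next with -0.25 (limma adjusted p 0.757).

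**Figure D1:**
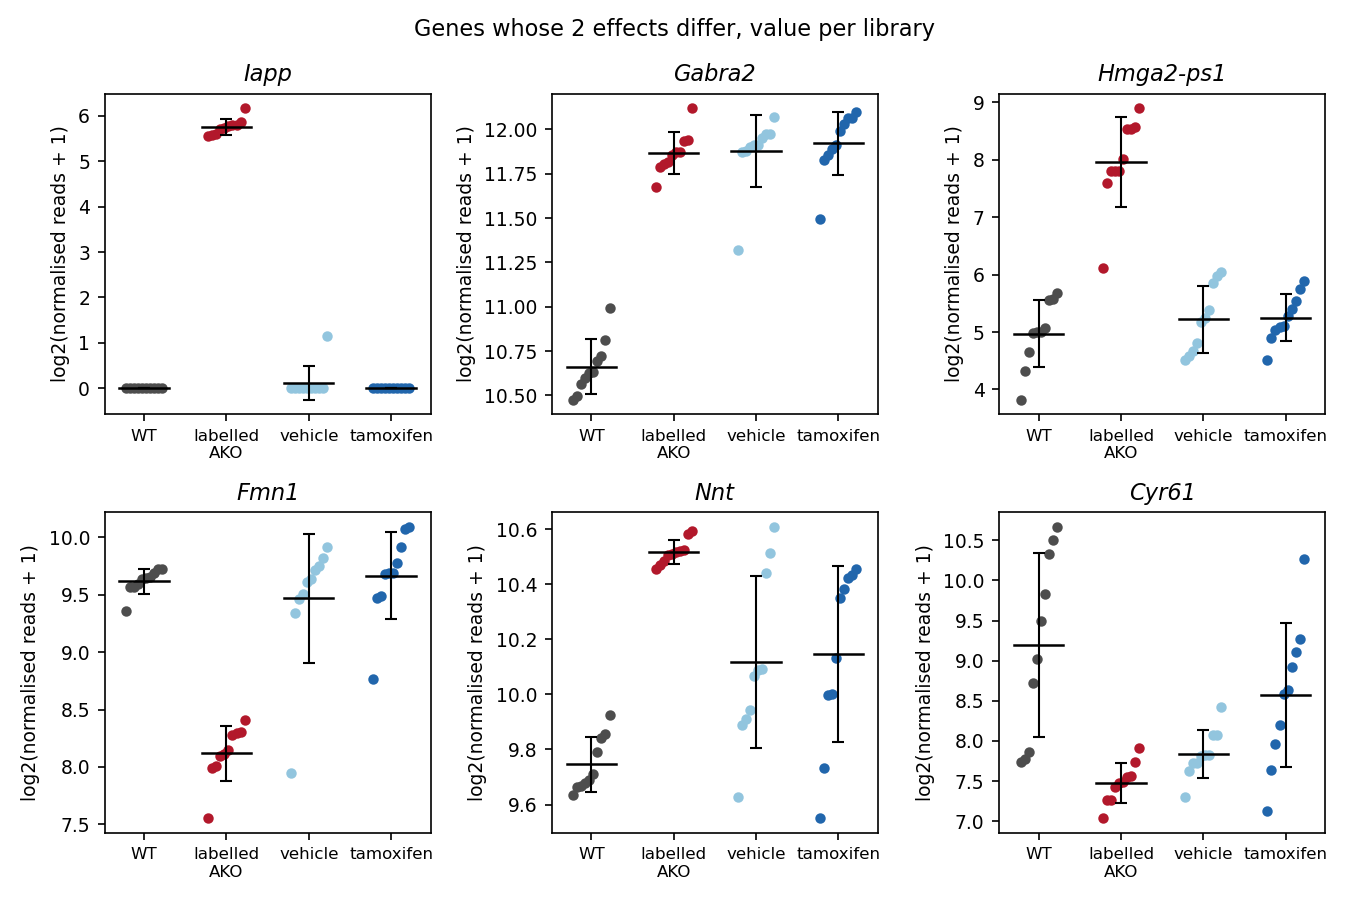
Level per library, as log2(normalised reads + 1), of the 6 genes whose effects differed, with 1 point for each of 10 libraries in each of the 4 groups, a bar at the group mean and error bars of 1 SD. WT stands apart for Gabra2, the libraries labelled AKO stand apart for Iapp, Hmga2-ps1 and Fmn1, the transgenic libraries spread between 9.55 and 10.61 for Nnt, and Cyr61 has overlapping groups.

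The immediate early genes, transcription factors and regulators that neurons and glial cells induce within minutes of stimulation, were lower with the AKO label and had a median tamoxifen effect near 0. Over 25 members tested the median AKO-label effect was -0.82, the median tamoxifen effect 0.03 and the median difference -0.83, against 0.00298 over all genes tested. None was called for the difference, while 19 had a negative difference at an unadjusted p under 0.05, against 2.7% of all genes tested. For the AKO-label effect 9 were called lower, against 0.166% of all genes tested: Fos, Fosb, Jun, Junb, Npas4, Btg2, Dusp1, Klf4 and Gadd45b. Of these 9, 8 had a tamoxifen effect above 0, beside 7785 of all 15677 genes tested. Of the whole list of 25, 14 were lower with the AKO label and higher with tamoxifen, and 11 were lower in both comparisons. None of the 25 had a tamoxifen effect with an unadjusted p under 0.05, beside 852 of all 15677 genes tested.

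The level of the whole list, as the mean of centred log2 values, had a lowest, median and highest library of -0.84, -0.38 and -0.28 in AKO and 0.01, 0.42 and 0.82 in WT. After tamoxifen it was -0.81, 0.06 and 0.70, and after vehicle -0.85, -0.02 and 0.56. AKO and WT did not overlap, whereas the transgenic groups overlapped each other nearly throughout and spanned both. The contrast of the difference is thus set by a narrow low group and a high group on one side and by a pair of wide groups on the other.

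Npas4, a transcription factor induced by neuronal calcium entry, had the smallest p of the list. Over libraries its lowest, median and highest levels were 7.47, 8.65 and 9.11 log2 in AKO, 8.13, 10.13 and 11.30 in WT, 8.64, 9.98 and 10.63 after tamoxifen and 8.49, 9.23 and 10.20 after vehicle. Its effects were -1.48 and 0.48, and the difference of -1.96 (SE 0.443, limma adjusted p 0.153) was not called. Junb, an AP-1 subunit, had 10.91, 11.29 and 11.58 in AKO and 11.58, 12.29 and 12.70 in WT, with 9 of 10 AKO libraries below the lowest WT library. After tamoxifen it had 10.86, 11.89 and 12.65 and after vehicle 10.73, 11.80 and 12.32, so those groups overlapped. Its effects of -0.94 and 0.21 gave a difference of -1.15 (SE 0.277, limma adjusted p 0.207). Fos, another AP-1 subunit named here after its values were seen, had 8.42, 9.48 and 9.64 in AKO, 10.20, 11.04 and 11.80 in WT, 8.30, 10.67 and 11.49 after tamoxifen and 8.33, 10.14 and 11.40 after vehicle. Its effects of -1.66 and 0.23 gave a difference of -1.88 (SE 0.4929, limma adjusted p 0.318).

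The median difference of the list was -1.01 against WT numbers 11 to 15 alone and -0.58 against 21 to 25 alone, and -0.70 with tissue marker levels as covariates. With the first of these, 16 genes were called for the difference, and they included Npas4, Junb, Jun, Btg2 and Dusp1. With the second, 5 were called (Iapp, Gabra2, Hmga2-ps1, Fmn1 and Pnpla7, a lysophospholipase), and no immediate early gene was among them. The labels do not say what the numbers of the WT libraries stand for. A fit of 17 libraries with a shared number, with that number as a block, called Egr1, Egr2, Fos and Fosb for the difference. Shared numbers do not pair the libraries.

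A short element that the choice of the list did not use occurs in many but not all of the promoters of the immediate early genes. The letters TGACG, the core of the cAMP response element, occur on either strand in the 250 bases before the start of 15 of 21 members matched in RefSeq (71.43%), against 3550 of 12337 matched genes tested (28.78%). Jun and Gadd45b, called lower with the AKO label, are among the 6 matched members without it, the others being Fosl2, Ier5, Dusp6 and Gadd45g. The full element TGACGTCA, which contains that core on both strands, occurs in 3 of the 21 (14.29%, against 2.87%). None of 12 matched myelin genes has the core, and 21 of 59 matched oxidative phosphorylation genes (35.59%) have it. The 200 bases before the start are printed for the 3 genes whose levels are given above and for Cyr61, chosen as examples that hold the core, in genes lower with the AKO label and above 0 with tamoxifen. They are RefSeq sequences of GRCm38.p6, 5′ to 3′ on the strand of the gene, and capitals mark TGACG or its complement CGTCA and, in Cyr61, also GGAATG or its complement CATTCC, the core bound by TEAD factors, the partners of YAP. Fos is chr12:85473690-85473889 (plus strand), Npas4 chr19:4989972-4990171, Junb chr8:84978749-84978948 and Cyr61 chr3:145649986-145650185 (minus strand).
Fos: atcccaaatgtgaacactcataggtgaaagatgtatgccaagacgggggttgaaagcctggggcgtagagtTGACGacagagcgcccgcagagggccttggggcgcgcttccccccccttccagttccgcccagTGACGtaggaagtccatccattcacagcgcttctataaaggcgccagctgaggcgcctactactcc
Npas4: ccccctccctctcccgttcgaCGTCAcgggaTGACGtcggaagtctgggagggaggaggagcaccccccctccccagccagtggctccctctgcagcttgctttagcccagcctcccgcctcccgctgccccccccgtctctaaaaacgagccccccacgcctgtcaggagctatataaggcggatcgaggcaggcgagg
Junb: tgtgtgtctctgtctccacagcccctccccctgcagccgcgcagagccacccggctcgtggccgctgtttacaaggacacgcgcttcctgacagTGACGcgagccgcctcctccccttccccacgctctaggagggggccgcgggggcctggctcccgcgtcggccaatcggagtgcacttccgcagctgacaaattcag
Cyr61: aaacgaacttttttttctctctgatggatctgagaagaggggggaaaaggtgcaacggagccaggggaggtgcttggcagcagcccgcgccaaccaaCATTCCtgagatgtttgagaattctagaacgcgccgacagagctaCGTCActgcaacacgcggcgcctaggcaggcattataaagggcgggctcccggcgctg
Fos and Npas4 have the core at 2 places in these 200 bases and Junb and Cyr61 at 1, and Cyr61 also has 1 TEAD core. GGAATG occurs in the 250 bases of 4 of 8 matched YAP-responsive and matricellular genes and of 12.97% of matched genes tested. It also occurs in 4 of 12 matched myelin genes, 7 of 59 oxidative phosphorylation genes and 3 of 21 immediate early genes. A match describes letters only, and binding at these places was not measured.

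Myelin genes had opposite signs in the comparisons. Myelin is the lipid-rich sheath that oligodendrocytes wrap around axons. All 16 of the myelinating oligodendrocyte markers tested were lower with the AKO label and higher with tamoxifen, with medians of -0.17 and 0.19 and a median difference of -0.36. None was called, and 11 had a negative difference at an unadjusted p under 0.05, against 2.7% of all genes tested. Over all genes tested 43.5% had opposite signs. Of 12 oligodendrocyte precursor markers 8 had opposite signs, in 5 of them lower with the AKO label and in 3 higher, with a median difference of -0.09, or -0.0401 without tamoxifen replicate 18. Markers of 1 cell type share their source, so the 16 signs are not 16 separate observations.

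Mobp, a structural protein of compact myelin, had a lowest, median and highest level of 12.42, 12.74 and 12.98 log2 in AKO and 12.89, 13.14 and 13.38 in WT. After tamoxifen it had 12.06, 12.72 and 13.17 and after vehicle 11.64, 12.36 and 13.19. In AKO, 8 of 10 libraries lay below the lowest WT library, and the transgenic groups overlapped. Its difference was -0.70 (SE 0.179, limma adjusted p 0.275). Mbp, the basic protein that compacts the sheath, had effects of -0.19 and 0.18, and Cldn11, the tight junction protein of myelin, of -0.27 and 0.26.

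The level of the 16 markers, as the mean of centred log2 values, ran from -0.12 to 0.40 in AKO (median 0.14) and from 0.21 to 0.46 in WT (median 0.31). After tamoxifen it ran from -0.76 to 0.26 (median -0.11) and after vehicle from -0.82 to 0.34 (median -0.35), so both transgenic groups had lower medians than both other groups. With each library left out in turn the median difference stayed between -0.43 and -0.28, and the tamoxifen median was 0.115 without vehicle replicate 1. The median difference was -0.58 with the level of the immediate early genes as a covariate, and that fit called Mobp, Cldn11 and Mal for the difference. Mobp was also called without vehicle replicate 16. With 4 tissue marker levels as covariates, the myelin level being one of them, the median difference was 0.03. The part that white matter in the dissected piece has in these values was not tested.

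**Figure D2:**
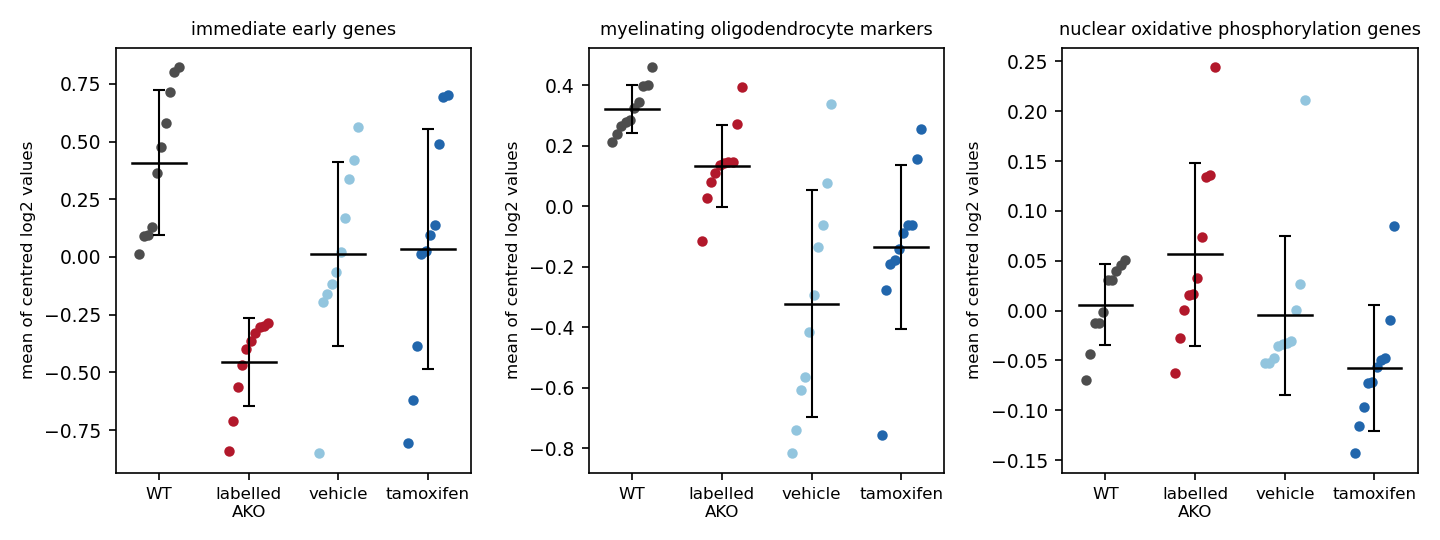
Level of the immediate early genes, the myelinating oligodendrocyte markers and the nuclear oxidative phosphorylation genes per library, as the mean of centred log2 values, with 10 libraries, their mean and error bars of 1 SD in each of the 4 groups. For the immediate early genes the libraries labelled AKO (highest -0.28) lie below all WT libraries (lowest 0.01) and the transgenic groups overlap; for myelin, WT is highest and vehicle lowest in median.

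Genes of the respiratory chain and of ribosomes leaned the other way, by little. Of 71 nuclear oxidative phosphorylation genes tested, 62 were higher with the AKO label and lower with tamoxifen, against 3630 of all 15677 genes tested. The 71 had medians of 0.05 and -0.06 and a median difference of 0.10. For 21 of the 71 the difference was positive at an unadjusted p under 0.05, against 2.95% of all genes tested. For none was it negative at that p, and none was called. Of 76 cytosolic ribosomal protein genes, 60 had the same pattern of signs, with medians of 0.08 and -0.02, and 6 had a positive difference at an unadjusted p under 0.05. Their median difference of 0.11 was 0.0653 without vehicle replicate 3, and their tamoxifen median changed sign (0.0145). For oxidative phosphorylation the tamoxifen median was -0.0282 without vehicle replicate 3, and the AKO-label median 0.0287 without AKO replicate 6. Sdhb, the iron-sulfur subunit of complex II, was at 0.08 and -0.07. These median differences are below the 0.22 log2 that the interval of the median gene reached, but members can have narrower intervals. For Sdhb, named for its small p, the difference was 0.16 (95% interval 0.06 to 0.25).

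Interferon-stimulated genes, many of them antiviral effectors, had a median AKO-label effect of 0.15, a median tamoxifen effect of -0.14 and a median difference of 0.27 over 24 members. Without vehicle replicate 1 the median difference was 0.145 and the median tamoxifen effect -0.01. With sample quality weights the median difference was 0.131, without vehicle replicate 5 the median tamoxifen effect was -0.23, and without AKO replicate 21 the median AKO-label effect was 0.0944. Opposite signs were seen in 20 of the 24, against 43.5% of all genes tested. A positive difference at an unadjusted p under 0.05 was seen in 5, against 2.95% of all genes tested. Ifi44 had the largest of those named, 1.36 (SE 0.428, limma adjusted p 0.643), and Rtp4 was at 0.69 (limma adjusted p 0.753). Glucocorticoid-induced genes leaned as the immediate early genes did, with a median difference of -0.29 over 16 members. The difference was negative at an unadjusted p under 0.05 for 4 of these 16, against 2.7% of all genes tested. Among them Pdk4, a kinase that shuts pyruvate out of oxidation, had effects of -0.37 and 0.19 (difference limma adjusted p 0.207) and Sgk1, a kinase induced by corticosterone, of -0.64 and 0.10.

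Hes5, a repressor that Notch signalling induces in progenitors and astrocytes, rose with the AKO label by 0.98 log2 and had a tamoxifen effect of -0.06. The difference of 1.04 (SE 0.240, limma adjusted p 0.183) was not called. Hes5 was called for the difference with sample quality weights and against WT numbers 11 to 15 alone. The median difference of 16 Notch pathway genes was 0.10, or 0.0572, 0.0433 and 0.0643 without vehicle replicate 1, vehicle replicate 3 and AKO replicate 15. In the choroid plexus and ependymal list of 14, lining cells of the ventricles, the tamoxifen median of 0.44 exceeded the AKO-label median of 0.05. Their median difference of -0.44 was -0.29 without tamoxifen replicate 9, and the tamoxifen median was 0.29 without vehicle replicate 3. The AKO-label median ran from -0.04 to 0.12 with each library left out in turn. Transthyretin (Ttr), the main secreted protein of the choroid plexus, was at -0.91 and 1.47, with a difference of -2.38 that was not called (limma adjusted p 0.859). The 15 motile cilia genes had a median difference of -0.24, which was -0.0803 with sample quality weights, -0.131 without AKO replicate 8, -0.145 without WT replicate 25, -0.147 without tamoxifen replicate 18 and -0.157 without vehicle replicate 10. Rsph4a, a radial spoke protein, had effects of 0.00 and 0.81.

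**Figure D3:**
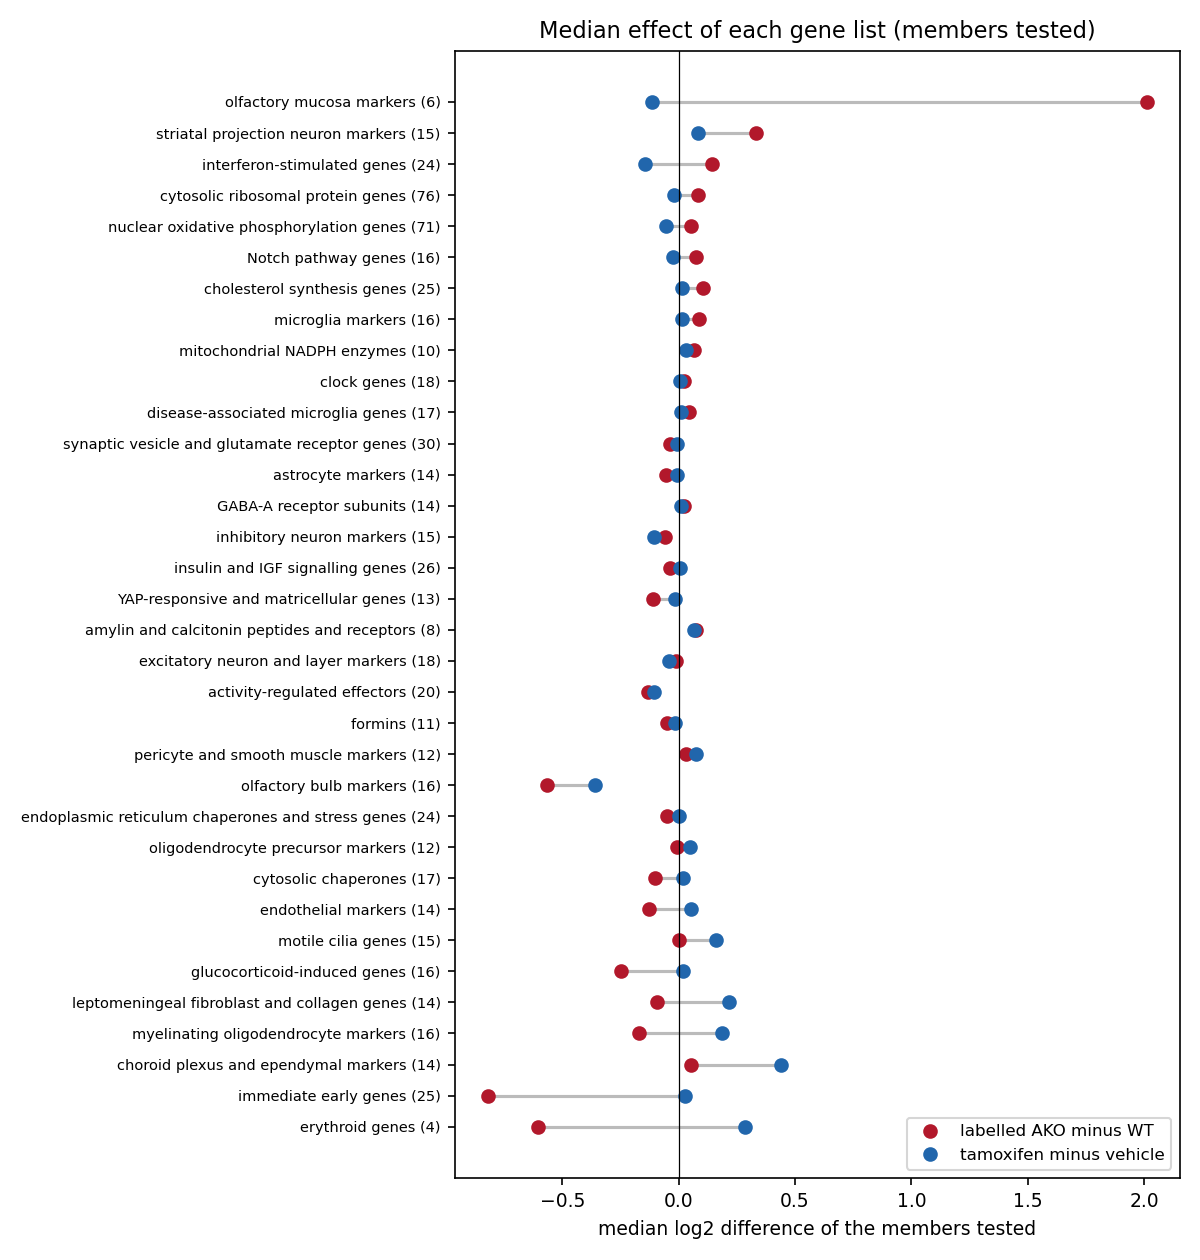
Median effect over the members tested of each of the 34 gene lists, with the number of members in brackets, for the AKO label against WT and for tamoxifen against vehicle, as log2 differences. The immediate early genes sit at -0.82 and 0.03 and the myelin markers at -0.17 and 0.19, and the olfactory mucosa markers, 6 of 13 tested, at 2.01 and -0.11.

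Of the 34 lists, which hold 647 genes tested of 673, 29 had no member called for the difference and 5 had 1 member each, those being Iapp, Gabra2, Nnt, Fmn1 and Cyr61. Most lists that mark neighbouring tissue or blood had median differences away from 0. The olfactory mucosa markers had a median difference of 2.32, the 4 of 10 erythroid genes tested of -1.14, the 14 leptomeningeal fibroblast and collagen genes of -0.29 and the 15 striatal markers of 0.27, with no member called, while the 16 olfactory bulb markers had -0.07. Some of these values moved with single libraries. The leptomeningeal value was -0.113 without vehicle replicate 3 and -0.127 with sample quality weights. The striatal value was 0.0714 without WT replicate 13, between 0.126 and 0.170 without vehicle replicate 4, 11 or 39 or tamoxifen replicate 16, and between 0.462 and 0.479 without vehicle replicate 1 or 3 or tamoxifen replicate 18, and it was 0.725 with sample quality weights. The olfactory bulb value ran from -0.41 to 0.13 with each library left out in turn. The 22 lists outside these, the immediate early, myelin, oxidative phosphorylation, ribosomal, interferon, glucocorticoid, choroid plexus and cilia lists had median differences between -0.18 and 0.10.

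Some genes moved alike in both comparisons. The mean of both effects was called for 11 genes (0.0702% of those tested; 1612 at an unadjusted p under 0.05), 6 higher and 5 lower. This mean can pass on 1 large effect alone, and for Iapp, Gabra2, Hmga2-ps1, Fmn1 and Nnt it did: each was called for the difference as well. The other 6 were Gmeb1, Gmeb2, Smarca4, Setd7, Mapk15 and Spint2, the last outside the rule for naming genes and chosen after its values were seen. Spint2, a membrane serine protease inhibitor, was at 0.38 and 0.25. The count of 11 was 7 without any 1 of tamoxifen replicates 9, 15, 18, 27 and 44, vehicle replicates 1, 3, 5, 10, 11 and 16, WT replicates 14, 21 and 22, and AKO replicates 6 and 7.

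Gmeb1, a glucocorticoid modulatory element binding protein, had like effects in both comparisons. Its lowest, median and highest levels were 9.68, 9.76 and 9.87 log2 in AKO against 9.71, 9.99 and 10.09 in WT, and 9.63, 9.74 and 9.83 after tamoxifen against 9.69, 9.96 and 10.11 after vehicle. The AKO and tamoxifen libraries were low by a like amount, with overlap in both pairs. The mean effect was -0.19 (SE 0.033, limma adjusted p 0.0035), made of -0.20 and -0.17, and the difference was -0.03 (95% interval -0.16 to 0.10). Its partner Gmeb2 had effects of -0.21 and -0.10 (mean effect limma adjusted p 0.042).

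Smarca4, the ATPase of the BAF chromatin remodelling complex, showed the same arrangement in a gene with many reads. It had 12.63, 12.75 and 12.82 log2 in AKO against 12.73, 12.90 and 12.97 in WT, and 12.61, 12.73 and 12.83 after tamoxifen against 12.68, 12.84 and 12.89 after vehicle. Its effects of -0.15 and -0.09 had a mean that was called (-0.12, limma adjusted p 0.0196). Setd7, a lysine methyltransferase, rested on the AKO label, with -0.26 against -0.04. Mapk15, an atypical MAP kinase, rested on low counts, with a lowest, median and highest level of 4.38, 5.23 and 7.43 in AKO, 3.18, 4.42 and 5.69 in WT, 2.82, 4.62 and 5.61 after tamoxifen and 0, 1.67 and 4.45 after vehicle. Its effects were 0.82 and 2.16, the tamoxifen effect having the smallest p of all genes without being called (limma adjusted p 0.289). With each of the 40 libraries left out in turn, the mean effect of Gmeb1 and Smarca4 was called in all 40 fits, that of Setd7 in 13, of Mapk15 in 14 and of Gmeb2 in 9. Gmeb1 lost its call with the immediate early gene level as a covariate (-0.17, limma adjusted p 0.106). Smarca4 lost its call with that covariate (-0.11, limma adjusted p 0.130), with tissue marker covariates (-0.09, limma adjusted p 0.206), with sample quality weights (-0.10, limma adjusted p 0.055), without AKO replicates 14 and 19 (-0.11, limma adjusted p 0.0609) and against WT numbers 21 to 25 alone (-0.11, limma adjusted p 0.096).

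Nptx2, a secreted pentraxin that gathers AMPA receptors at synapses, was lower in both comparisons without being called for the mean effect. Levels (lowest, median and highest) were 11.21, 11.49 and 11.68 log2 in AKO and 11.11, 11.74 and 12.27 in WT, and 11.14, 11.51 and 11.91 after tamoxifen against 11.68, 11.90 and 12.21 after vehicle. After tamoxifen 8 of 10 libraries lay below the lowest vehicle library, while the AKO range lay inside that of WT. Its effects were -0.31 and -0.39 and their mean -0.35 (limma adjusted p 0.0749). It belongs to the 20 activity-regulated effectors, of which 14 were lower in both comparisons and 3 had opposite signs, with medians of -0.13 and -0.10. Over all genes tested 4261 of 15677 were lower in both and 43.5% had opposite signs. Olfactory bulb markers also had one sign in both comparisons, 14 of 16 being lower in both with medians of -0.57 and -0.36. That tamoxifen median was -0.0284 without vehicle replicate 3, -0.0778 without vehicle replicate 1, -0.191 without tamoxifen replicate 33 and -0.234 without 44, and it was between -0.608 and -0.562 without vehicle replicate 5 or tamoxifen replicate 9 or 16. The effectors' tamoxifen median was -0.0479 without tamoxifen replicate 9 and -0.0677 without vehicle replicate 5.

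**Figure D4:**
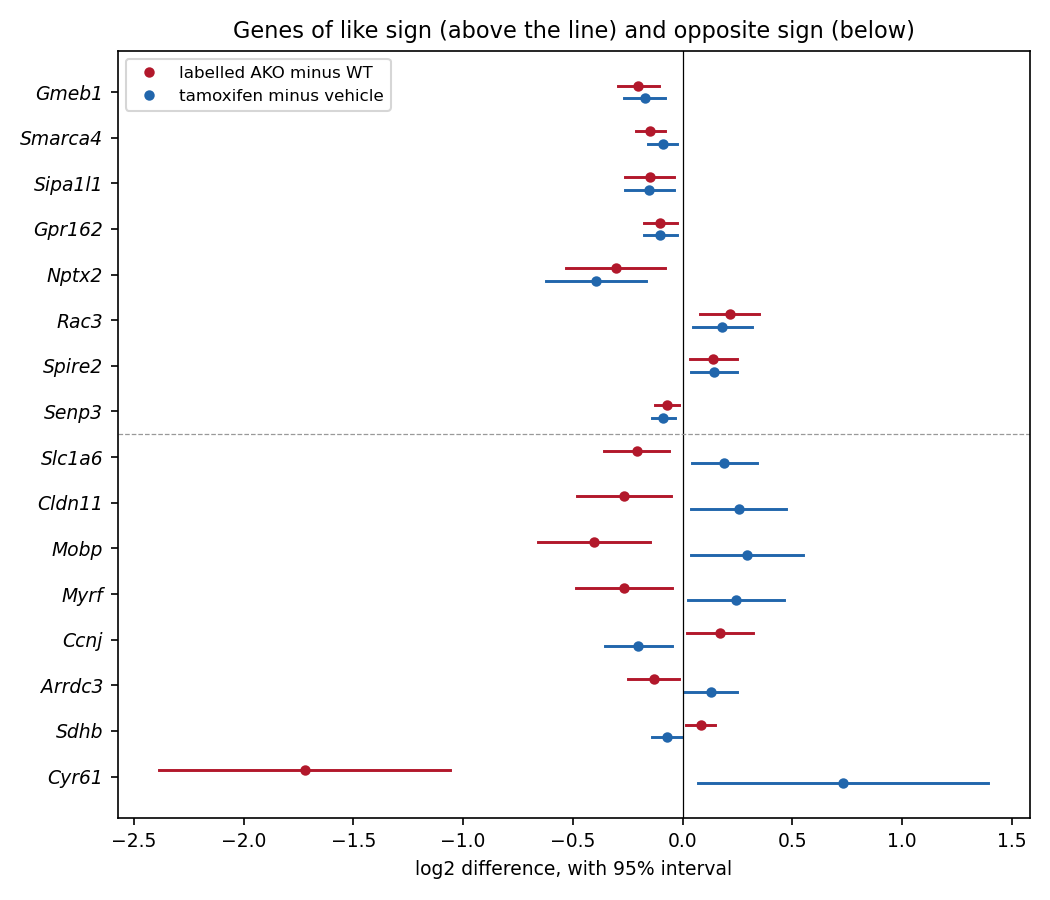
AKO-label effect and tamoxifen effect of the 8 genes of like sign and the 8 of opposite sign chosen by the naming rule, as log2 differences with 95% intervals from the limma model. Gmeb1 sits at -0.20 and -0.17 and Nptx2 at -0.31 and -0.39, while Mobp sits at -0.40 and 0.29 and Cyr61 at -1.72 and 0.73; these genes were chosen by these effects.

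Across the genes tested, 109 had an unadjusted p under 0.05 in both comparisons. They are 6.92% of the 1574 with such a p for the AKO label, beside 852 of all 15677 genes with one for tamoxifen. They are also 12.8% of the 852 for tamoxifen, beside 1574 of all 15677 for the AKO label. Whether this overlap exceeds chance was not tested. The signs were the same for 94 of the 109 (0.6% of all genes tested; 41 higher, 53 lower) and opposite for 15 (0.0957%; 6 higher and 9 lower with the AKO label). Over all genes tested 56.5% had the same sign. Sipa1l1, a scaffold of dendritic spines, was at -0.15 in both comparisons, Gpr162, an orphan receptor, at -0.10 in both, and Rac3, a small GTPase of neurons, at 0.21 and 0.18. Fezf1, a forebrain and olfactory transcription factor chosen after its values were seen, had 2.21 and 2.13 at a mean under 1 read per 1e+06, with libraries at 0 reads in 3 of the 4 groups. Of the 15 with opposite signs, 3 are in the myelin list (Mobp, Cldn11 and Mal), and Myrf, the transcription factor that drives myelin genes, was at -0.27 and 0.24. Slc1a6, a glutamate transporter, was at -0.21 and 0.19, Ccnj, a cyclin, at 0.17 and -0.20, and Arrdc3, an arrestin-like adaptor, at -0.13 and 0.13.

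These counts moved with the covariates and with single libraries. With 4 tissue marker levels as covariates 20 genes had the same sign and 31 opposite signs, and with the level of the immediate early genes 42 and 63. Without vehicle replicate 1 the count of the same sign was 59. The count of opposite signs was 9 without tamoxifen replicate 18, 25 without tamoxifen replicate 9 or vehicle replicate 10, 31 without tamoxifen replicate 21 and 34 without vehicle replicate 16. The part that these tissue markers have in the shared signs was not tested further.

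As a description across genes, which are not independent of each other and share cell types within each library, the effects had a Pearson r of 0.212 and a Spearman rho of 0.194 over 15677 genes. Without the genes called for the AKO-label effect or for the difference r was 0.229. With each library left out in turn r stayed between 0.134 and 0.254. It was -0.125 with the tissue marker levels and -0.147 with the immediate early gene level as covariates, and 0.0279 with limma-voom and sample quality weights. The comparisons share no library.

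Read from the AKO label, 42 genes were called, 16 higher (0.102%) and 26 lower (0.166%). Their tamoxifen effects had the same sign in 22 and the opposite sign in 20, and ran from -0.17 to 0.73. The same sign was seen in 56.5% of all genes tested. The median size was 0.434 log2 for the AKO label, by which these genes were chosen, and 0.0722 for tamoxifen, against 0.0659 and 0.0566 over all genes tested. An unadjusted p under 0.05 for tamoxifen was found in 5 of the 42, beside 852 of all 15677 genes tested. In 4 of the 5 the sign was the same, the exception being Cyr61. The count of 42 was 118 in a model of those 2 groups alone, and it was 13 without AKO replicate 6, 20 without AKO replicate 8, 21 without 7, 26 without 13 or 14 and 27 without 19. It was 14 without WT replicate 14, 17 without 11, 18 without 12, 25 without 21 and 27 without 13.

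Read from tamoxifen, no gene was called (0% of those tested; 852 at an unadjusted p under 0.05, 453 of them higher), and limma-voom called 0 as well. Leaving out vehicle replicate 39 gave 1 call. For the median gene the 95% interval of the tamoxifen effect reached 0.156 log2 to each side. Of the 10 genes with the smallest p for tamoxifen, 7 had the same sign with the AKO label, beside 56.5% of all genes tested. An unadjusted p under 0.05 for the AKO label was found in 1 of the 10, Gmeb1, beside 1574 of all 15677 genes tested. Zmynd10, an assembly factor of motile cilia, was at 0.62 with tamoxifen and 0.23 with the AKO label, and Cort, the interneuron peptide cortistatin, at -0.51 and 0.00.

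**Figure D5:**
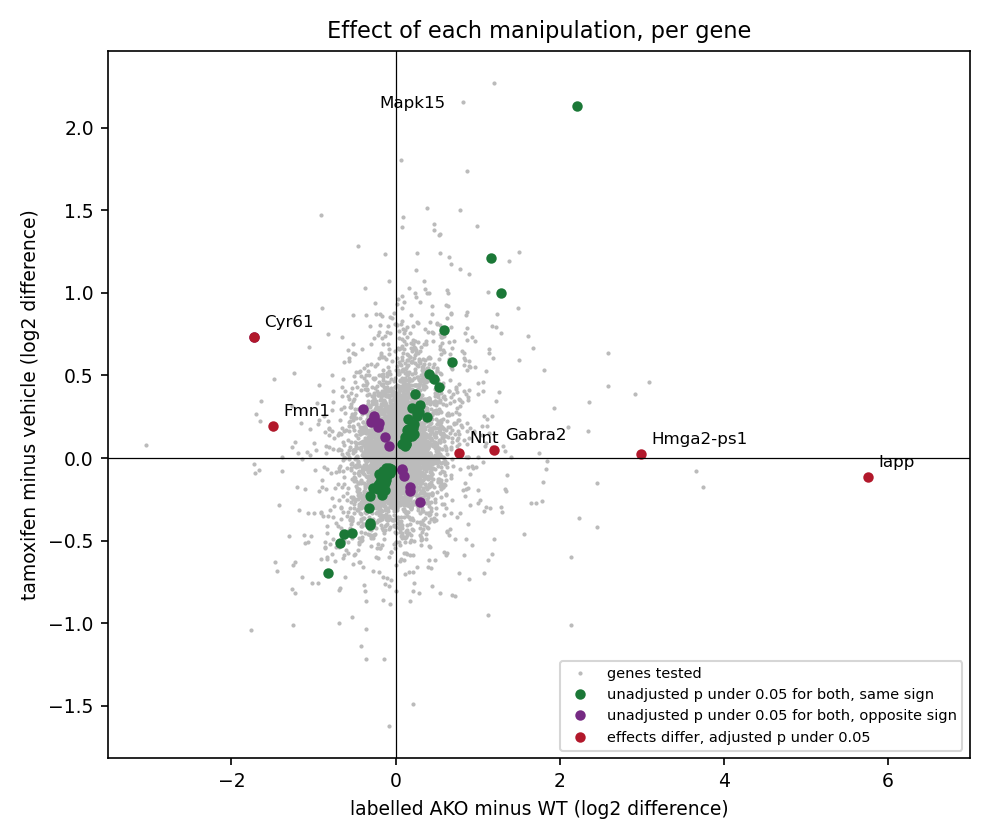
Each point is 1 of 15677 genes tested, with the AKO-label effect on the horizontal axis and the tamoxifen effect on the vertical axis, both as log2 differences. Colours mark the genes with an unadjusted p under 0.05 for both effects (94 of the same sign, 15 of opposite sign) and the 6 genes whose effects differ, which lie along the horizontal axis away from 0, apart from Cyr61 (-1.72 and 0.73).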

How the data were processed

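RNA from mouse frontal cortex was sequenced as Illumina TruSeq Stranded mRNA libraries, per the labels' protocols. A single table of log2 values, deposited by the authors, covers 24495 genes; the sources used here give no aligner, counter, normalization tool or build. After 2 was raised to a deposited log2 value and 1 subtracted, low values (up to 200 reads) lay within 0.1 of a whole multiple of 1 step per column for 99.92% to 100.00% of values, so the values are log2(reads / size factor + 1) and reads could be recovered. Left out were 7 genes with values that were not whole reads and 1 value column that matched no sample, and 27 symbols turned into dates were restored.

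Groups came from the titles. A count test had been planned; because the deposited unit was log2, its named fallback was used, limma 3.58.1 (R 4.3.3), trend and robust options on, on 1 model of 4 groups with the difference of the effects, their mean and each effect as contrasts. A gene was tested if 10 or more libraries reached 10 reads, scaled to median depth, and its reads summed to 15 or more. The test was tried on simulated reads first. Replicates of no group came closer than a chi-square of 6.62 per gene, so none was treated as a duplicate. The limit of 3 reads for a count of 0 covers counting error only. Alternatives were another filter, pseudocount, scaling or tool (limma-voom), tissue or immediate early gene covariates, subsets of libraries and each library left out in turn; a model of each pair of groups alone was added after seeing the data.

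Genes were named by a rule: Iapp; genes called for the difference; up to 10 called for the mean effect; 8 of like and 8 of opposite sign by the smaller of their 2 statistics; and up to 2 members a list by the smallest p for the difference. Gene lists (34) were written from general knowledge. The members and lists were chosen with earlier results of these data known. Promoters came from RefSeq (GRCm38.p6), matched by gene ID. Where a gene had several entries, any entry with the letters was enough.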

Additional observations from a re-analysis of the deposited data

Results flagged for a closer look

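For 6 genes the effect of the AKO label differed from that of tamoxifen by a test of the difference itself (limma): Iapp (5.87 log2), Hmga2-ps1 (2.97), Gabra2 (1.16), Nnt (0.74), Fmn1 (-1.69) and Cyr61 (-2.45). Of these, Iapp passed the filter on reads only through the libraries labelled AKO.

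Single libraries that stood apart from the other 9 of their group were looked for with Dixon's test in 112 groups of libraries (26 genes and 2 lists, 4 groups each), and 18 had one, where chance gives about 1 in 20. Fmn1 had one in every group: AKO replicate 6 (7.55 log2, next 7.99), WT replicate 24 (9.36, next 9.56), tamoxifen replicate 9 (8.77, next 9.47) and vehicle replicate 3 (7.95, next 9.34), each the lowest. The vehicle library lay within the range of the libraries labelled AKO. For Gabra2, tamoxifen replicate 21 (11.50, next 11.83) and vehicle replicate 16 (11.32, next 11.87) were lowest and still above all WT libraries.

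AKO replicate 6 was also the lowest for Hmga2-ps1 (6.12, next 7.59) and Sipa1l1 (14.04, next 14.28) and the highest for Sdhb (12.73, next 12.62). Tamoxifen replicate 9 was the lowest for Setd7 (12.35, next 12.56) and the highest for Sdhb (12.67, next 12.56). Tamoxifen replicate 21 was the lowest for Myrf (10.15, next 10.51) and for the level of the myelin markers (-0.76, next -0.28). AKO replicate 14, the library with the most olfactory mucosa markers, was the highest for Mapk15 (7.43, next 5.80).

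For Iapp, AKO replicate 16 was highest (6.17, next 5.86), and vehicle replicate 16 was highest (1.16, from 1 read, with the others at 0). WT replicate 25 was the lowest for Gmeb1 (9.71, next 9.91) and WT replicate 21 for Arrdc3 (10.64, next 10.96).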

How the results depend on the processing

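Gene counts moved with the processing. The count for the difference, 6, was 10 with the immediate early gene level as a covariate and 16 against WT numbers 11 to 15 alone, and 6 to 7 with each library left out in turn. The count for the mean effect, 11, was 7 without a filter, with limma-voom or with tissue marker covariates, 6 with the immediate early gene covariate or without AKO replicates 14 and 19, and 32 against WT numbers 21 to 25 alone (7 to 15 with each library left out, the 7 arising without any of 16 libraries). The count for the AKO label, 42, was 24 with limma-voom, 155 with sample quality weights, 15 with tissue and 18 with immediate early gene covariates, 11 without AKO replicates 14 and 19, and 118 for the 2 groups alone (13 to 57 with each library left out). That for tamoxifen was 0, and 0 to 1 with each library left out. Genes of the same sign numbered 94, or 20 and 42 with tissue and immediate early gene covariates (59 to 127 with each library left out); of opposite sign 15, or 32 with sample quality weights, 31 and 63 with those covariates and 23 against WT numbers 11 to 15 (9 to 34). The correlation of 0.212 was 0.0279 with sample quality weights, -0.125 with tissue covariates and -0.147 with immediate early gene covariates. The causes were not tested. Because the immediate early gene level does not overlap between AKO and WT, fits with that covariate cannot fully part it from the AKO label. All 6 genes called for the difference were called in each of 40 fits with a library left out; Iapp could not be tested with a mean of at least 50 reads. Of 867 values of named genes under other settings 802 kept direction and side of the threshold, 50 lost and 10 gained a call and 5 reversed. Shared numbers do not pair the libraries: AKO and WT share 5, with correlations of deviations from -0.231 to 0.101. The replicate block, fitted to 17 libraries with a shared number, gave 6 genes for the difference. These were Fmn1, Iapp and the immediate early genes Egr1, Egr2, Fos and Fosb, and not Gabra2, Hmga2-ps1, Nnt or Cyr61. That fit gave 2 genes for the mean effect (neither Gmeb1 nor Smarca4) and 15 for the AKO label. It also gave 55 genes of the same and 30 of opposite sign, and a correlation of 0.0403. With this replicate block the difference reversed for Cldn11 (0.10), Mobp (0.17), Myrf (0.13), Ide (-0.34) and Olig2 (0.0997). Depth limits genes with few reads, such as Mapk15, Calcr and Fezf1.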
